A study of Mus musculus with 6 samples.

Results

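Insulin-like growth factors (IGFs) were examined through the mRNA of 10 genes: the ligands *Igf1* and *Igf2*, the receptors *Igf1r* and *Igf2r*, and the binding proteins *Igfbp2* to *Igfbp7*. They were taken by gene symbol from the 24062 genes in the counts, and all 10 were present. RNA-seq was performed on mouse DRG (dorsal root ganglion)/tumors from 3 *Nf1fl/fl;DhhCre* mice and from 3 mice also floxed for *Runx1* and *Runx3*, which encode transcription factors that bind a shared DNA motif. Both groups carried floxed *Nf1*, which encodes the Ras-inactivating protein neurofibromin, and the *DhhCre* transgene, whose *Dhh* promoter is active in Schwann cells (SCs) and SC precursors, so that cells outside this lineage were not targeted. The strain background was labelled C57BL/6-I129 throughout, and no treatment, age or sex was given for these mice in the sources used here. For the second group the study's methods give *Nf1fl/fl* together with the *Runx* alleles, whereas its genotype label reads Rx1flfl;Rx3fl/fl;DhhCre and leaves *Nf1* out. The tissue was labelled dorsal root ganglion in the first group and neurofibroma tumor in the second, so genotype and labelled tissue cannot be told apart. The comparison asks how the IGF axis differed in mice also floxed for *Runx1* and *Runx3*.

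IGF1 and IGF2 are secreted growth factors that act through IGF1R, a receptor tyrosine kinase whose signaling runs through PI3K/AKT and Ras/ERK. IGF2R, the cation-independent mannose 6-phosphate receptor, takes IGF2 into lysosomes and does not signal as a kinase. IGF-binding proteins hold most extracellular IGF, and secreted proteases release the ligand by cleaving them. In peripheral nerve, IGF1 is known as a survival factor for SCs and as a factor that promotes myelination and axon growth.

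Libraries held 12439296 to 16682194 assigned reads. With the TMM-scaled totals used for CPM (reads scaled to a common library total), 3 reads in a library corresponded to 0.179 to 0.247 CPM. This limit covers counting error only. *Runx1* was at 131, 141 and 172 CPM in *Nf1fl/fl;DhhCre* mice, against 84.0, 78.9 and 185 CPM in those labelled double knockout, so the third of the latter had the highest level of all 6. *Runx3* was at 19.9, 15.1 and 29.9 CPM against 13.5, 10.3 and 12.1 CPM, without overlap. By limma-voom with Benjamini-Hochberg adjustment, neither *Runx1* (log2 fold change -0.44, SE 0.32, adjusted p = 0.370; -0.85 and 0.0290 without that library) nor *Runx3* (-0.79, SE 0.30, adjusted p = 0.104) passed. *Nf1*, floxed in both groups, was at 302 ± 30.8 and 290 ± 44.5 CPM (SD, n = 3 each). Whole-gene counts from tissue with other cell types need not show an SC deletion, and the group is therefore called the libraries labelled double knockout, with values without the third library beside the main results. That library also came from its own sequencing run, although some titles and data give different mouse numbers within a genotype, so the run may belong to the second instead. Nothing in the labels states that libraries of a group came from separate litters or extractions, and p-values measure the spread between these libraries.

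TGTGG, the core of the motif bound by RUNX proteins, was searched on both strands of the RefSeq promoters (GRCm38.p6, 250 bases before to 50 after each start site), because the groups differ by label in the alleles of these factors. Promoters were listed for all 10 genes, 14 in all. The motif, or CCACA on the opposite strand, was found in 4 of the 14, belonging to *Igf2*, *Igfbp3* and *Igfbp4*, against 55.9% of all 32851 promoters. The 4 sequences are shown 5′ to 3′ on the strand of the gene, as 30 bases with the motif in capitals.
*Igf2*, across the start of its first exon, chr7:142666809-142666838, minus strand: ggccagaagcacTGTGGactctgccgagga
*Igf2*, within the gene and upstream of an internal start site, chr7:142661420-142661449, minus strand: tttagtcattcgCCACAgttttcccattta
*Igfbp3*, upstream of the gene, chr11:7214129-7214158, minus strand: gcctggagcgccTGTGGttacccgtgaaga
*Igfbp4*, upstream of the gene, chr11:99041187-99041216, plus strand: cggcgctgggggTGTGGccagggggccggt
Only in *Igfbp3* was the motif followed by T, giving TGTGGT, which with its reverse complement ACCACA occurs in 16.8% of all promoters. Counted from the start site, the motif began at position -223 in *Igfbp3* and -45 in *Igfbp4*, and at -10 and -166 in the 2 *Igf2* promoters. *Igf1*, *Igf1r*, *Igf2r*, *Igfbp2*, *Igfbp5*, *Igfbp6* and *Igfbp7* had neither form in these windows. For *Igf1r*, *Igf2r*, *Igfbp6* and an *Igfbp2* promoter, the bases shortly after the listed start site were not found in any GENCODE M21 transcript of the gene. A match describes the letters only and is not a binding site.

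The libraries labelled double knockout had less mRNA of *Igf1* and of most binding proteins, whereas *Igf2* and *Igf2r* overlapped between the groups and *Igf1r* was slightly higher. A DEG (differentially expressed gene) had an adjusted p below 0.05 and a change of more than 2-fold by limma-voom. *Igfbp7*, *Igf1*, *Igfbp3* and *Igfbp4* were DEGs, all with lower levels, among the 9 members that passed the low-count filter. Of all 15652 genes tested 13.4% were DEGs, with 5.36% lower and 8.03% higher. *Igfbp5* was lower by less than 2-fold and *Igf1r* higher by less than 2-fold, which brought the members with an adjusted p below 0.05 to 6, against 19.3% of all genes (8.22% lower and 11.1% higher). The same 6 members did not overlap between the groups, as did 42.3% of all genes (20.5% lower and 21.8% higher). The median log2 fold change was -0.86 over the 9 members and 0.02 over all genes tested, with 7 members lower and 2 higher. *Igfbp2* did not pass the filter, and no other member had fewer than 188 reads in any library. In sum the 10 members took 2405, 2779 and 2689 CPM in the *Nf1fl/fl;DhhCre* libraries and 1401, 1191 and 1176 CPM in those labelled double knockout.

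**Figure D1:**
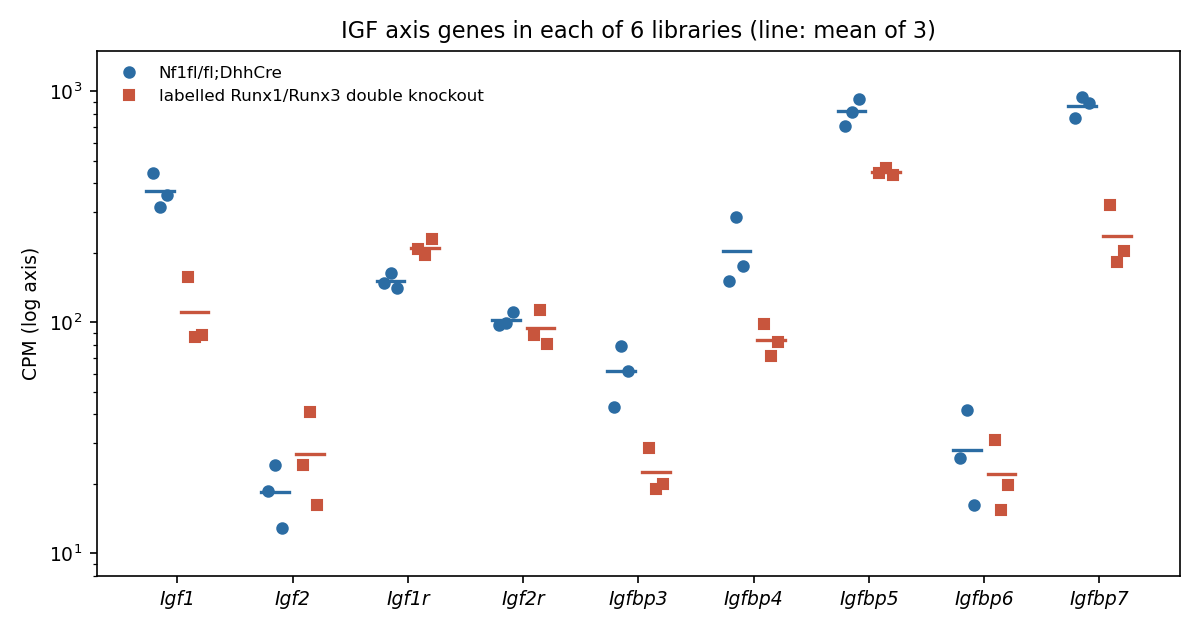
CPM (log axis) of 9 IGF axis genes in the 3 *Nf1fl/fl;DhhCre* libraries (circles) and the 3 labelled double knockout (squares), with the mean of each group as a line; *Igfbp2*, with 0 to 3 reads per library, is left out. The groups do not overlap for *Igf1*, *Igf1r*, *Igfbp3*, *Igfbp4*, *Igfbp5* and *Igfbp7*, and *Igf1r* is the only one of these that is higher in the libraries labelled double knockout.

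*Igf1* (chr10:87858265-87937042, plus strand), which encodes the ligand with the highest affinity for IGF1R, was at 445, 316 and 354 CPM in *Nf1fl/fl;DhhCre* mice, against 157, 86.1 and 88.0 CPM in those labelled double knockout. Every library of the first group was above every library of the second, and the first library labelled double knockout was the highest of its group. The means were 372 ± 66.1 and 110 ± 40.5 CPM (SD, n = 3 each), a decrease of 3.47-fold (log2 fold change -1.80, SE 0.25, 95% interval -2.38 to -1.21; limma-voom with Benjamini-Hochberg adjustment, adjusted p = 0.00967). *Igf1* remained a DEG when any of the 6 libraries was left out, with log2 fold changes of -2.04 to -1.63, and was at -1.65 without the third library labelled double knockout (limma-voom, adjusted p = 0.0224). In bulk tissue, fewer cells that express a gene and less RNA per cell cannot be told apart, which holds for each result here.

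*Igf2* (chr7:142650766-142666816, minus strand), an imprinted gene that encodes the ligand prominent in fetal growth, was at 18.6, 24.0 and 12.9 CPM against 24.1, 40.8 and 16.2 CPM. The groups overlapped, and the highest level of each was in the library with the most skeletal muscle mRNA. The difference (log2 fold change 0.46, SE 0.38, 95% interval -0.42 to 1.34) did not pass the test (limma-voom with Benjamini-Hochberg adjustment, adjusted p = 0.423), and the interval includes both a small decrease and an increase of more than 2-fold. The log2 fold change was 0.12 without the second library labelled double knockout and 0.80 without the third, with adjusted p by limma-voom of 0.847 and 0.168. The 9 skeletal muscle markers summed to 2641 CPM in the second *Nf1fl/fl;DhhCre* library and 11541 CPM in the second library labelled double knockout, and to 6.03 to 71.0 CPM in the other 4. With the mean log2 CPM of these markers as a covariate, the log2 fold change of *Igf2* was 0.31 (SE 0.22; limma-voom, adjusted p = 0.372). *Igf2* shares 3596 exonic bases with *Gm49394* on the same strand, a gene that is not among those counted. *Igf2* also shares 98 with the antisense *Igf2os*, which had 0 to 4 reads per library.

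*Igf1r* (chr7:67952827-68233668, plus strand), which encodes the signaling receptor, moved in the direction opposite to its main ligand. It was at 149, 164 and 140 CPM in *Nf1fl/fl;DhhCre* mice and reached 207, 195 and 230 CPM in those labelled double knockout. The means were 151 ± 12.2 and 211 ± 17.6 CPM (SD, n = 3 each), a difference of 1.39-fold with a narrow spread in both groups (log2 fold change 0.48, SE 0.12, 95% interval 0.19 to 0.77; limma-voom with Benjamini-Hochberg adjustment, adjusted p = 0.0357). This call was not stable, since the adjusted p rose by limma-voom to 0.0922 and 0.0789 without the first or the third *Nf1fl/fl;DhhCre* library, to 0.0636 and 0.0826 without the second or the third labelled double knockout, to 0.0637 with sex as a covariate and to 0.0631 with scaling by library size only. The log2 fold change stayed between 0.40 and 0.59 in all of these fits. *Igf2r* (chr17:12682406-12769664, minus strand), the clearance receptor, was at 97.7, 99.3 and 110 CPM against 88.0, 114 and 80.9 CPM. The groups overlapped (log2 fold change -0.14, SE 0.16, 95% interval -0.51 to 0.23; limma-voom with Benjamini-Hochberg adjustment, adjusted p = 0.566), and a change of 2-fold in either direction lies outside the interval. Its log2 fold change was -0.03 when the third library labelled double knockout was left out (limma-voom, adjusted p = 0.916). The imprinted antisense RNA *Airn* runs through *Igf2r* without sharing exon bases with it.

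*Igfbp7* (chr5:77349240-77408041, minus strand) showed the greatest change among the 9 members tested. It encodes a secreted protein of vessels and stroma that binds IGFs with low affinity. It was at 765, 950 and 887 CPM in *Nf1fl/fl;DhhCre* mice, against 322, 183 and 205 CPM in those labelled double knockout. The groups were far apart, and the first library labelled double knockout was again the highest of its group. The means were 867 ± 93.9 and 236 ± 74.7 CPM (SD, n = 3 each), a decrease of 3.77-fold (log2 fold change -1.92, SE 0.21, 95% interval -2.42 to -1.42; limma-voom with Benjamini-Hochberg adjustment, adjusted p = 0.00764). Omission of any 1 of the 6 libraries kept it a DEG (log2 fold change -2.12 to -1.75), including that without the third library labelled double knockout (-1.83; limma-voom, adjusted p = 0.0170). Its exons share 85 bases with *Polr2b* on the opposite strand, and whether reads were counted by strand is not given in the sources used here.

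*Igfbp3* (chr11:7206086-7213923, minus strand), which encodes the main IGF carrier of serum, was at 43.1, 79.2 and 61.8 CPM in *Nf1fl/fl;DhhCre* mice, against 28.7, 19.1 and 19.9 CPM in those labelled double knockout. The lowest library of the first group was above the highest of the second, and the means were 61.4 ± 18.0 and 22.5 ± 5.33 CPM (SD, n = 3 each). The decrease was 2.71-fold (log2 fold change -1.44, SE 0.28, 95% interval -2.09 to -0.78; limma-voom with Benjamini-Hochberg adjustment, adjusted p = 0.0174). *Igfbp3* was a DEG in 4 of the 6 fits without 1 library. By limma-voom its adjusted p was 0.0600 (log2 fold change -1.37) without the third *Nf1fl/fl;DhhCre* library, 0.0585 (-1.34) without the second labelled double knockout and 0.0492 (-1.35) without the third.

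*Igfbp4* (chr11:99041244-99054392, plus strand) encodes a binding protein that inhibits IGF action until the protease PAPP-A cleaves it. It was at 152, 287 and 175 CPM against 98.7, 71.5 and 82.1 CPM. The second *Nf1fl/fl;DhhCre* library stood well above the rest, and the other 2 of that group were closer to the libraries labelled double knockout, still without overlap. The means were 205 ± 72.3 and 84.1 ± 13.7 CPM (SD, n = 3 each), a decrease of 2.37-fold (log2 fold change -1.24, SE 0.26, 95% interval -1.85 to -0.63; limma-voom with Benjamini-Hochberg adjustment, adjusted p = 0.0209). Its call was the least stable of the 4 DEGs. It kept both thresholds in only 1 of the 6 fits without 1 library, that without the first labelled double knockout. Without the second *Nf1fl/fl;DhhCre* library the change was under 2-fold (log2 fold change -0.92; limma-voom, adjusted p = 0.0159). By limma-voom the adjusted p was 0.0518 (-1.40) without the first and 0.0565 (-1.29) without the third *Nf1fl/fl;DhhCre* library, and 0.0684 (-1.13) without the second and 0.0534 (-1.23) without the third labelled double knockout. Without the first *Nf1fl/fl;DhhCre* library the unadjusted limma-voom p of *Igfbp4* was 0.00150, against 0.00176 in all libraries. The number of DEGs among all genes fell from 2096 to 362 in that fit.

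*Igfbp5* (chr1:72857932-72874884, minus strand), which encodes a binding protein that attaches to extracellular matrix, was at 709, 818 and 931 CPM against 444, 467 and 435 CPM. The libraries labelled double knockout lay close together, and all 3 were below the lowest of the first group. The means were 819 ± 111 and 449 ± 16.4 CPM (SD, n = 3 each), a decrease of 1.82-fold (log2 fold change -0.86, SE 0.13, 95% interval -1.16 to -0.56; limma-voom with Benjamini-Hochberg adjustment, adjusted p = 0.0107). The adjusted p stayed below 0.05 in all 6 fits without 1 library, with log2 fold changes of -0.93 to -0.73 (-0.84 without the third library labelled double knockout), so this smaller difference was steadier than those of *Igfbp3* and *Igfbp4*.

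*Igfbp6* (chr15:102144362-102149511, plus strand), whose protein prefers IGF2 over IGF1, was at 25.8, 41.7 and 16.2 CPM against 30.8, 15.5 and 19.7 CPM. The groups overlapped widely, and the difference did not pass the test (log2 fold change -0.31, SE 0.39, 95% interval -1.23 to 0.61; limma-voom with Benjamini-Hochberg adjustment, adjusted p = 0.620). Its sign rested on the second *Nf1fl/fl;DhhCre* library, without which the log2 fold change was 0.09, against -0.25 without the third library labelled double knockout. *Igfbp2* (chr1:72824503-72852474, plus strand), which encodes a binding protein abundant in fetal tissue and brain, had 3, 3 and 0 reads against 0, 3 and 1 reads. No fold is given, since all 6 values were at or under 3 reads. *Igfbp2* lies 5457 bp from *Igfbp5*, which is on the opposite strand of chromosome 1. *Igfbp1*, 3539 bp from *Igfbp3* on chromosome 11, had no read in any library.

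**Figure D2:**
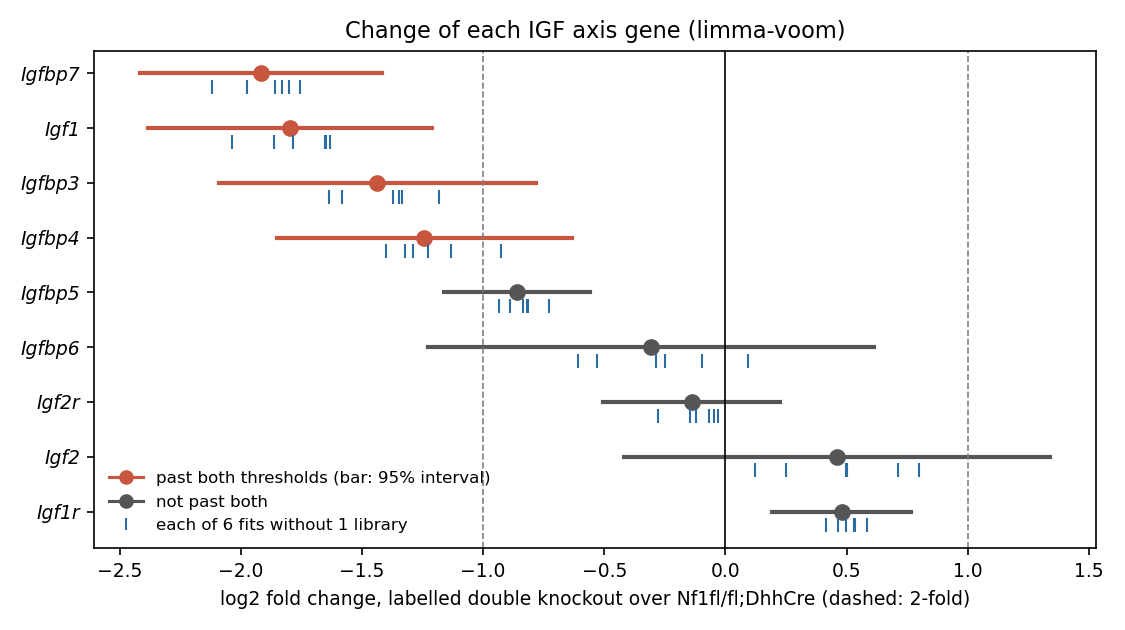
Log2 fold change (labelled double knockout over *Nf1fl/fl;DhhCre*) of the 9 members tested, with 95% intervals as bars, the 6 fits without 1 library as ticks and a 2-fold change as dashed lines. The ticks of *Igf1* (-2.04 to -1.63) and *Igfbp7* (-2.12 to -1.75) lie beyond 2-fold, those of *Igfbp4* reach -0.92, and those of *Igfbp6* fall on both sides of 0.

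To compare genes with each other, CPM was divided by the length of each gene's merged exons in kilobases (RPKM). By mean RPKM the *Nf1fl/fl;DhhCre* order was *Igfbp7* (717), *Igfbp5* (136), *Igfbp4* (46.3), *Igf1* (37.5), *Igfbp6* (25.1), *Igfbp3* (19.6), *Igf2r* (11.0), *Igf1r* (9.0), *Igf2* (3.23) and *Igfbp2* (0.07). In that order *Igfbp4* and *Igf1*, *Igf1* and *Igfbp6*, and *Igfbp6* and *Igfbp3* overlapped between libraries. In the libraries labelled double knockout *Igfbp7* (195) and *Igfbp5* (74.7) still led, followed by *Igfbp6* (19.8), *Igfbp4* (19), *Igf1r* (12.5), *Igf1* (11.2), *Igf2r* (10.1), *Igfbp3* (7.20), *Igf2* (4.72) and *Igfbp2* (0.06). There, each neighbouring pair from *Igfbp6* to *Igf2* overlapped except *Igfbp4* and *Igf1r*. With the longest transcript in place of merged exons, *Igf1r* (13.2) came before *Igf2r* (11.5) and *Igfbp3* before *Igfbp6* in *Nf1fl/fl;DhhCre*, and *Igfbp4* came before *Igfbp6* in the libraries labelled double knockout, so the order of these pairs depends on the length used. By merged exons *Igf1* went from above its receptor in every *Nf1fl/fl;DhhCre* library to a level that overlapped it.

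The RPKM ratio of *Igf1* to *Igf1r* was 5.07, 3.26 and 4.28 in the *Nf1fl/fl;DhhCre* libraries and 1.29, 0.749 and 0.650 in those labelled double knockout. All 3 of the latter were lower, by 4.83-fold in the geometric means. The ratio of *Igf1* to *Igf2* was 13.8, 7.60 and 15.9 against 3.78, 1.22 and 3.13, also without overlap and lower by 4.87-fold in the geometric means. The summed RPKM of the 6 binding proteins was 822, 1050 and 962 against 399, 265 and 284, lower by 3.02-fold in the geometric means. Without the third library labelled double knockout the log2 changes of these 3 quantities were -2.07, -2.47 and -1.53. The ratio of *Igf1* to this sum overlapped between the groups, at 0.0546, 0.0304 and 0.0372 against 0.0398, 0.0328 and 0.0313 (log2 change -0.20, or -0.51 without length scaling). In an exact two-sided permutation test of 3 against 3 libraries, the first 3 quantities had p = 0.1, the smallest value the design allows (0.133 after Benjamini-Hochberg adjustment over 4 tests), and the last had p = 0.7.

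Shares of each binding protein in the summed RPKM were compared next, in a design of 3 against 3 libraries that cannot pass the threshold. *Igfbp7* made up 77.0%, 74.8% and 76.2% of the summed RPKM in the *Nf1fl/fl;DhhCre* libraries and 66.6%, 57.0% and 59.5% in those labelled double knockout, a difference of -14.9 percentage points (-14.2 without the third library labelled double knockout). *Igfbp5* went from 14.4%, 12.97% and 16.1% to 18.5%, 29.3% and 25.5%, although its own level was lower. *Igfbp6*, whose level overlapped between groups, went from 2.82%, 3.57% and 1.52% to 6.95%, 5.24% and 6.22% of the sum. Those 3 shares did not overlap between the groups, with exact two-sided permutation p = 0.1 each, the smallest value possible for n = 3 each (0.167 after adjustment over 5 shares). *Igfbp4* was at 4.83% ± 1.18 and 6.08% ± 0.474 (SD, n = 3 each; exact p = 0.3) and *Igfbp3* at 2.05% ± 0.367 and 2.28% ± 0.0367 (exact p = 0.4). Shares of a sum are not independent of each other, and they depend on gene length. Without length scaling the difference was 1.25 percentage points for *Igfbp6* in place of 3.50, 14.2 for *Igfbp5* in place of 9.95, 0.107 for *Igfbp4* in place of 1.25, and it turned to -0.310 for *Igfbp3*.

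**Figure D3:**
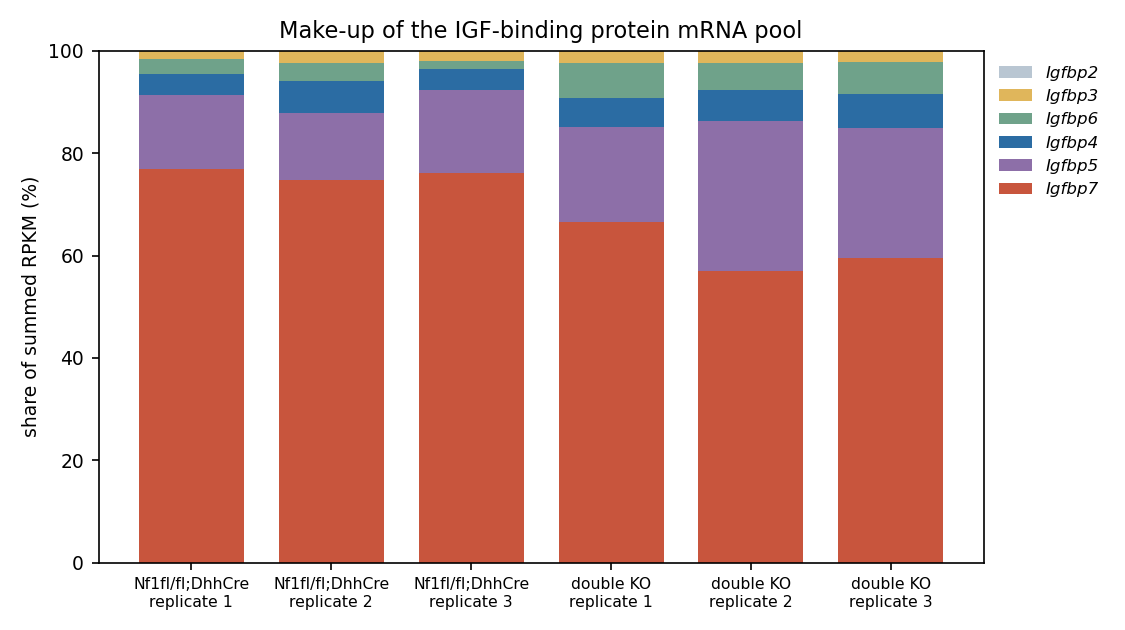
Share (%) of each binding protein in the summed RPKM of *Igfbp2* to *Igfbp7*, 1 bar per library, for *Nf1fl/fl;DhhCre* and for libraries labelled double knockout (double KO). *Igfbp7* takes 74.8% to 77.0% in the first group and 57.0% to 66.6% in the second, and *Igfbp5* and *Igfbp6* take more.

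Across the 6 libraries the 4 member DEGs varied together (Pearson r of log2 CPM, given as a description without a test, since all 6 points share the difference between groups). The correlation was between 0.84 and 0.98 for their 6 pairs, for example 0.97 for *Igf1* with *Igfbp7*, 0.98 for *Igfbp3* with *Igfbp4* and 0.97 for *Igfbp3* with *Igfbp7*. *Igfbp5* was between 0.88 and 0.94 with each of the 4. *Igf2r* (0.22 to 0.31) and *Igfbp6* (0.40 to 0.60), which overlapped between the groups, followed them less closely. *Igf2*, which also overlapped, had negative correlations with all 4 (-0.49 to -0.36). *Igf1r* ran opposite to *Igf1* (-0.90) and *Igfbp5* (-0.94). Among 10172 genes outside the IGF lists with an average of 3 or more on the log2 CPM scale, those most like *Igf1* were *Il33* (0.999), *Lmo4* (0.998) and *Pot1b* (0.998). Most like *Igfbp7* were *Tmem39a* (0.998), *Ecm1* (0.997) and *Rab3il1* (0.997), most like *Igfbp3* were *Itga5* (0.998), *Ltbp4* (0.996) and *Spry1* (0.996), and most like *Igfbp4* were *Lepr* (0.996), *Serping1* (0.995) and *Crebbp* (0.993). Values this high were common, since 428 genes had r above 0.95 with *Igf1* and 433 with *Igfbp7*, against 167 with *Igfbp3* and 115 with *Igfbp4*.

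Other genes of the IGF axis, 61 in 6 lists grouped by function, had no common direction. Of the 50 that passed the filter, 4 were DEGs with higher and 4 with lower levels, beside 13.4% DEGs among all genes tested, and the median log2 fold change was -0.07, close to that of all genes tested. None of the 8 was a DEG in all 6 fits without 1 library.

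Binding-protein proteases and their inhibitors had a median log2 fold change of -0.55, with 7 of 9 lower and 2 DEGs. *Pappa*, which encodes PAPP-A, the protease of IGFBP4, was at 195, 304 and 187 CPM in *Nf1fl/fl;DhhCre* mice, against 127, 27.5 and 41.0 CPM in those labelled double knockout. As for *Igf1* and *Igfbp7*, the first library labelled double knockout was the highest of its group (log2 fold change -2.09, SE 0.49; limma-voom with Benjamini-Hochberg adjustment, adjusted p = 0.0283). *Pappa* was a DEG in only 1 of the 6 fits without 1 library, that without this library, with adjusted p by limma-voom of 0.0564 to 0.0835 in the other 5, 0.0541 with sex as a covariate and 0.0610 by edgeR's quasi-likelihood test. *Htra1*, which encodes a secreted serine protease that cleaves IGFBP5, was at 27.6, 34.5 and 20.8 CPM against 14.4, 12.7 and 13 CPM (log2 fold change -1.02, SE 0.24; limma-voom, adjusted p = 0.0275), and its change was just past 2-fold. It stayed a DEG only without the third *Nf1fl/fl;DhhCre* library, with log2 fold changes of -1.04 to -0.80 in the other 5 fits.

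Of 8 other proteins with an IGFBP domain, *Esm1*, which encodes the endothelial proteoglycan endocan, was the only DEG, at 5.13, 7.33 and 6.54 CPM against 1.35, 1.81 and 1.72 CPM (log2 fold change -1.94, SE 0.36; limma-voom with Benjamini-Hochberg adjustment, adjusted p = 0.0158). Its adjusted p was 0.0501 without the first *Nf1fl/fl;DhhCre* library and 0.0540 without the second labelled double knockout, by limma-voom. The 22 genes of receptor signaling were centered near 0 (median log2 fold change -0.08), and 1 was a DEG. This was *Ptpn1*, whose phosphatase acts on the insulin and IGF1 receptors, at 57.4, 48.4 and 68.2 CPM against 30.8, 21.5 and 26.9 CPM (log2 fold change -1.13, SE 0.20; limma-voom, adjusted p = 0.0141). It was no longer a DEG without the first (limma-voom, adjusted p = 0.0573) or the third *Nf1fl/fl;DhhCre* library or the second labelled double knockout (log2 fold changes of -0.968 and -0.996, under 2-fold). Among the relatives of the IGF genes 2 of 7 passed the filter, and *Insr*, which encodes the insulin receptor, had a log2 fold change of 0.01 (SE 0.21; limma-voom, adjusted p = 0.972). *Insrr*, which encodes the insulin receptor-related receptor, was at 0.832, 0.417 and 1.15 CPM against 1.35, 1.64 and 3.83 CPM, without overlap, but did not pass the test (log2 fold change 1.51, SE 0.66; limma-voom, adjusted p = 0.149).

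Imprinted genes of the IGF2 neighbourhood and growth network held 3 DEGs of 7 tested, all higher. *Meg3*, a maternally expressed long noncoding RNA, was at 273, 600 and 300 CPM against 1235, 1521 and 2550 CPM (log2 fold change 2.20, SE 0.36; limma-voom with Benjamini-Hochberg adjustment, adjusted p = 0.0127), with an adjusted p of 0.0541 without the first *Nf1fl/fl;DhhCre* library. *Peg3*, which encodes a zinc-finger protein, was at 102, 186 and 91.2 CPM against 251, 280 and 469 CPM (log2 fold change 1.42, SE 0.33; limma-voom, adjusted p = 0.0273). *Mest*, which encodes a hydrolase-like protein, was at 23.4, 20.6 and 22.3 CPM against 46.1, 35.9 and 72.9 CPM (log2 fold change 1.18, SE 0.27; limma-voom, adjusted p = 0.0275). In all 3 genes the groups did not overlap, and the third library labelled double knockout was the highest. *Peg3* was a DEG in 2 and *Mest* in 3 of the 6 fits without 1 library, and neither kept the call without the first or the third *Nf1fl/fl;DhhCre* library or the third labelled double knockout, nor *Peg3* without the second. *H19*, which shares its imprinting control region with *Igf2*, was at 9.29, 20.02 and 7.18 CPM against 3.98, 25.2 and 3.17 CPM (log2 fold change -0.77, SE 0.75; limma-voom, adjusted p = 0.505). Like *Igf2* it was highest in the library of each group with the most skeletal muscle mRNA. *Igf2bp2*, which encodes an *Igf2* mRNA-binding protein, was at 2.43, 4.47 and 5.39 CPM against 8.45, 9.95 and 8.65 CPM (log2 fold change 1.18, SE 0.32; limma-voom, adjusted p = 0.0425). It was a DEG in none of the 6 fits without 1 library, where its log2 fold change was 0.89 to 1.45.

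**Figure D4:**
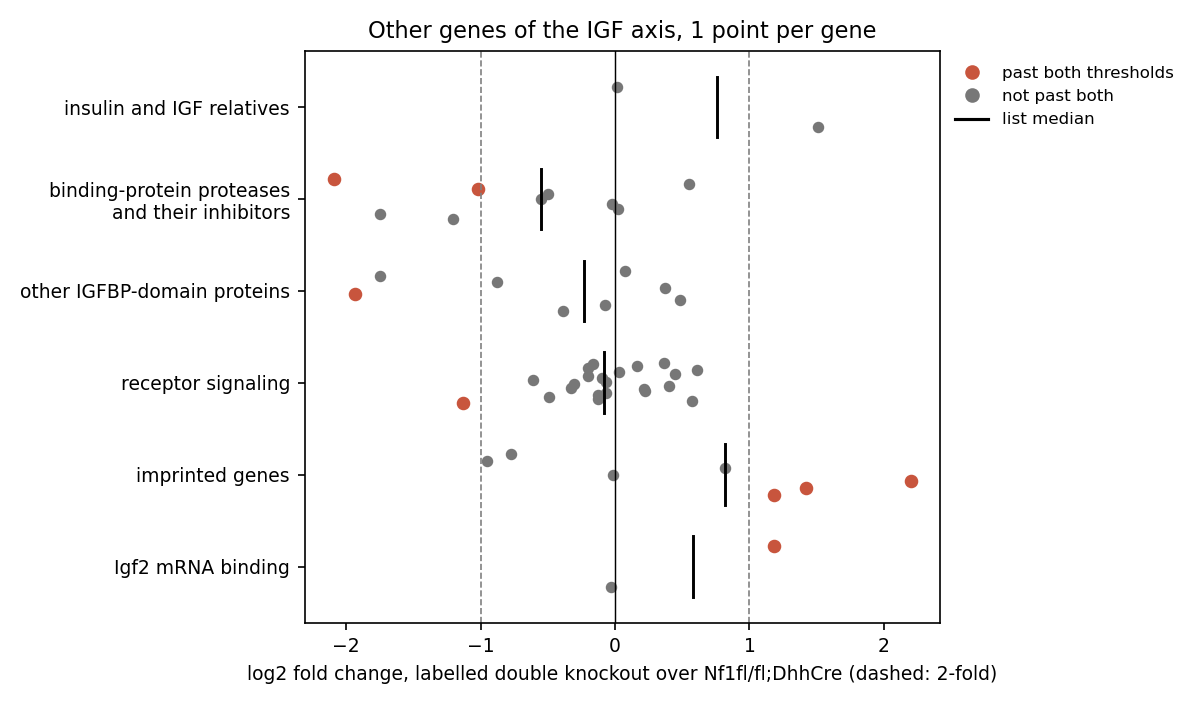
Log2 fold change (labelled double knockout over *Nf1fl/fl;DhhCre*) of 50 other IGF axis genes in 6 lists, 1 point per gene, with list medians as vertical lines and a 2-fold change as dashed lines. The medians of the signaling list (-0.08) and the IGFBP-domain list (-0.23) lie near 0, that of the proteases at -0.55, and *Meg3* (2.20) is the highest point.

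Marker genes of several cell types differed between the groups alongside the members. The 8 fibroblast markers summed to 9201, 9859 and 9609 CPM in the *Nf1fl/fl;DhhCre* libraries and 5640, 3414 and 3808 CPM in those labelled double knockout, with 4 DEGs, all lower. The 12 macrophage markers summed to 1632, 1075 and 2248 CPM against 427, 170 and 347 CPM, with 10 DEGs, all lower. In both lists the first library labelled double knockout was the highest of its group, as for *Igf1*, *Igfbp3*, *Igfbp4* and *Igfbp7*. *Igfbp5* was highest in the second instead (467 CPM). Within the *Nf1fl/fl;DhhCre* group the orders were mixed. The fibroblast sum, *Igfbp3*, *Igfbp4* and *Igfbp7* were highest in the second library, whereas the macrophage sum and *Igf1* were lowest there. Of 7 perineurial markers *Cldn1* and *Ntn4* were DEGs, both lower, 2 others had log2 fold changes above 0, and the median was -0.16, with sums of 798 to 1517 CPM against 400 to 639 CPM. *Cldn1* alone, at 680, 1015 and 463 CPM against 233, 117 and 185 CPM, made up most of the difference between these sums.

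All 12 sensory neuron markers were DEGs with higher levels, and their sum was 567, 1183 and 569 CPM against 2749, 3546 and 6022 CPM. The 6 libraries had the same order by this sum and by *Meg3*, but not by *Peg3* or *Mest*. All of these share the difference between the groups, and a link between them was not tested. Of 7 myelinating SC markers 6 were DEGs, all higher, with sums of 4173 to 4842 CPM against 8495 to 11701 CPM. *Pmp22* alone, at 4168, 3567 and 3685 CPM against 9387, 7186 and 9978 CPM, made up most of each of these sums. By contrast, the 6 general SC markers were centered at -0.08 (median log2 fold change) with 1 DEG, *S100b*, which was higher in all fits without 1 library (log2 fold change 1.52, SE 0.13; limma-voom with Benjamini-Hochberg adjustment, adjusted p = 0.00598). The 10 endothelial markers had sums of 210 to 295 CPM against 226 to 389 CPM, with overlap between the groups and a median log2 fold change of 0.52. The 6 bone and cartilage markers summed to 74.9 to 88.3 CPM against 14.4 to 23.6 CPM. Of the 3 tested 1 was a DEG, *Col2a1* (log2 fold change -2.20). *Col2a1* alone, at 73.6, 43.3 and 86.2 CPM against 20.1, 12.7 and 11.2 CPM, made up most of each of these sums. The other 2 tested, *Ibsp* (0.82) and *Dmp1* (-0.55), were not DEGs and had opposite signs. The 5 adipocyte markers overlapped in their sums (19.7 to 144 CPM against 78.3 to 691 CPM), with all 5 log2 fold changes above 0 and a median of 2.05. The 5 satellite glial markers held 1 higher DEG, *Fabp7* (1.87), and 1 lower, *Kcnj10* (-1.25). Of the 6 meningeal markers tested 1 was a DEG, *Aldh1a2* (-3.56, lower), whereas 4 had log2 fold changes above 0. The median of the meningeal list was 0.17, and its sums overlapped (20.8 to 51.9 CPM against 16.0 to 31.2 CPM). The mural list had a median of 0.04, with overlapping sums. Of all these lists and the skeletal muscle list, the only gene without a read in any library was the meningeal marker *Slc22a6*. The part of these shifts in cell type markers in the levels of the IGF genes was not tested. By *Xist* and *Ddx3y*, the *Nf1fl/fl;DhhCre* libraries read as 2 female and 1 male mice and those labelled double knockout as 1 female and 2 male. With sex as a covariate, the same 4 members were DEGs.

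**Figure D5:**
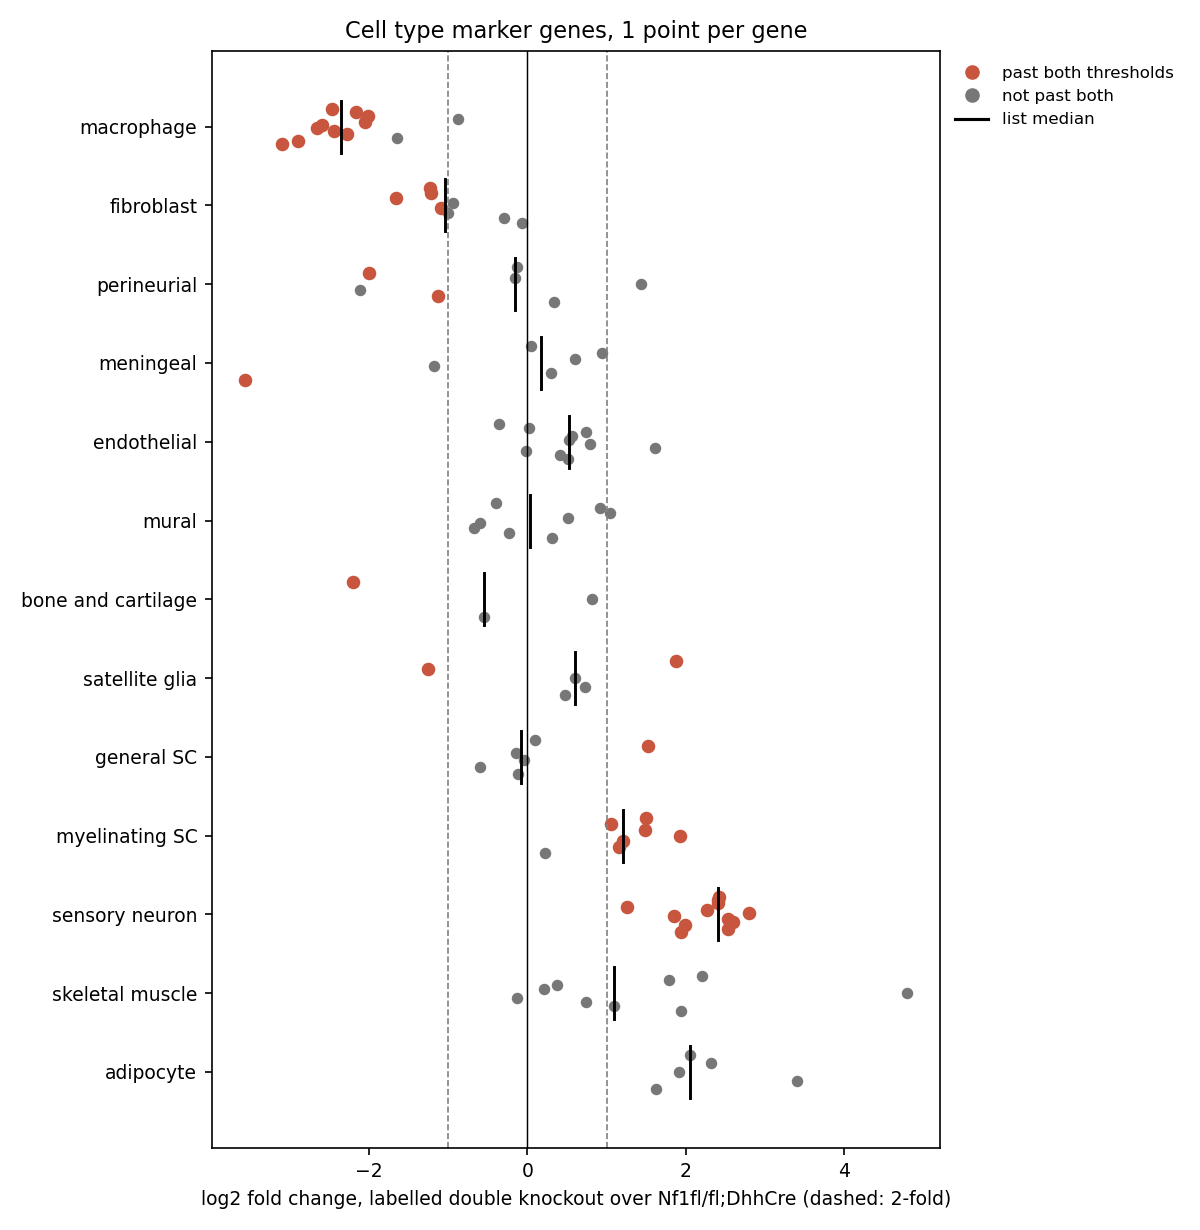
Log2 fold change (labelled double knockout over *Nf1fl/fl;DhhCre*) of cell type marker genes, 1 point per gene, with list medians as vertical lines and a 2-fold change as dashed lines. Macrophage (median -2.35) and fibroblast (-1.04) markers lie to the left, and myelinating SC (1.21) and sensory neuron (2.40) markers to the right.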

How the data were processed

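Total RNA from 6 mouse DRG/tumors was amplified (Ovation RNA-Seq System v2), made into Nextera XT libraries and sequenced as paired ends. The authors aligned reads to mm10 with TopHat and deposited raw counts per gene from featureCounts, named per the labels together with CASAVA 1.4 and limma. The counting annotation, strand setting and treatment of multiply aligned reads are not given in the sources used here. Libraries were numbered within each group by accession, so that a shared number pairs no mice. Counts were scaled by TMM (edgeR 4.0.16) and fitted on genotype by limma-voom (limma 3.58.1, R 4.3.3) after a low-count filter (filterByExpr, at least 10 reads in enough libraries and 15 in all), with Benjamini-Hochberg adjustment over 15652 genes. The steps were tested on simulated counts. CPM used TMM-scaled totals, and RPKM used GENCODE M21 merged exons, whose coordinates (mm10) are given. The fit was repeated with DESeq2 1.42.0, edgeR's quasi-likelihood test, other scalings and filters, sample weights, sex or muscle covariates, and omission of each library. Ratios and shares were compared by exact permutation (scipy 1.17.1, Python 3.11.15). The members and lists were chosen with earlier results of these data known. Named genes were every member, each DEG of the other IGF lists, the 3 genes most like each member DEG, *Runx1*, *Runx3* and *Nf1*. *H19*, *Insr*, *Insrr*, *Igfbp1*, neighbouring or overlapping genes, the sex-linked genes and the markers named were added after their values were seen. Figures used matplotlib 3.10.9.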

Additional observations from a re-analysis of the deposited data

How the results depend on the processing

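The 4 member DEGs were DEGs under all 9 alternatives that kept every library (edgeR, DESeq2, both other scalings, both filters, sample weights, and sex or muscle as a covariate). Under these, 1824 to 2907 genes were DEGs in all (2096 in the reported fit) and 6 to 9 of the other IGF axis genes (8 in the reported fit). Omission of 1 library mattered more: the number of DEGs ranged from 362 (without the first *Nf1fl/fl;DhhCre* library) to 2285, that of member DEGs from 2 to 4 and that of the other IGF axis genes from 0 to 7. Signs turned for *Igfbp6* (0.0928 without the second *Nf1fl/fl;DhhCre* library, and down to -0.608 without the third), for the *Nf1* gene (log2 fold change -0.06 in all libraries, -0.181 to 0.0433 without 1), and for *Igf1* relative to the summed binding proteins (log2 change -0.388 to 0.0345, the latter without the first *Nf1fl/fl;DhhCre* library). The cause was not tested. Without length scaling, the share differences were -0.310 percentage points for *Igfbp3* (reversed), 0.107 for *Igfbp4*, 14.2 for *Igfbp5* and 1.25 for *Igfbp6*, and the summed binding proteins had a log2 change of -1.28, since long genes then weigh more. Without 1 library the share differences ranged from -17.7 to -12.9 for *Igfbp7*, 7.52 to 12.9 for *Igfbp5*, 2.94 to 3.97 for *Igfbp6*, 0.898 to 1.93 for *Igfbp4* and 0.0449 to 0.412 for *Igfbp3*. No paired analysis was made, because nothing in the labels pairs a mouse of the first group with a mouse of the second. With 3 libraries per group, differences such as those of *Igf2* and *Igfbp6* are bounded only by wide intervals, and depth limits *Igfbp2* alone among the members.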
